A study of Saccharomyces cerevisiae with 44 samples.

Results

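The effect of deleting THO2 on the RNAs that co-purified with Cbp80 and Yra1 was measured in 12 pulldown libraries (13 sequencing samples) of the budding yeast Saccharomyces cerevisiae. These formed 4 groups of 3 libraries each, among 30 libraries (44 sequencing samples) in 10 groups from 5 strains in the whole series. The groups were a strain with protein A on Cbp80 (Cbp80-PrA) and a strain with no protein A tag, each with THO2 intact (wild type) or deleted (tho2Δ). All 4 strains, controls included, carried SNAPf-tagged YRA1 in the BY4741/BY4742 laboratory background and grew in rich glucose medium at 30 °C. Lysates were lightly fixed with 0.2% formaldehyde. IgG beads took up Cbp80-PrA, protease cleavage released the bound particles, and beads with anti-Yra1 antibody then captured those that also held Yra1, so that an RNA in the final fraction went through 2 purification steps. The no-tag strains went through the same steps and give the background. Total RNA from 7.5% of each lysate was sequenced in parallel, in 12 libraries of the same 4 strains. Both kinds of library counted 3′ ends of transcripts by molecular identifiers. Only tags assigned to annotated genes were compared. The R64 span of a gene such as CGR1 (363 bases) is its coding sequence alone, so tags that end beyond it may be missed. No label says that each tho2Δ strain is more than 1 isolate, so a difference between strains can include anything else that distinguishes those isolates.

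The cap-binding complex, of which Cbp80 (gene STO1) is the large subunit, binds the capped end of RNAs made by RNA polymerase II and stays with them in the nucleus. Tho2 is the largest subunit of THO, a complex that travels with the polymerase, and, with the helicase Sub2 and the adaptor Yra1, forms TREX, which helps to pack new mRNA into a particle that the receptor Mex67 can export. Cells without Tho2 are known for poor transcription of long genes, DNA damage linked to transcription and retention of some mRNAs in the nucleus. The comparison addressed here is whether the set of RNAs found with both Cbp80 and Yra1 depends on Tho2. For each gene it was expressed as an interaction, the log2 ratio of Cbp80-PrA to no tag in tho2Δ minus the same log2 ratio in wild type. A positive interaction means a larger ratio to background in tho2Δ, and a negative one a smaller ratio.

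Reads assigned to genes numbered 257286 to 459999 per library in Cbp80-PrA wild type and 117192 to 265792 in Cbp80-PrA tho2Δ, against 44389 to 71037 in no-tag wild type and 23769 to 38378 in no-tag tho2Δ. The no-tag libraries, those of tho2Δ most of all, therefore set the precision of the interaction, and these statements cover counting error and the spread between libraries only. THO2 itself had 12, 28 and 14 counts in Cbp80-PrA wild type pulldowns and 0 in all other pulldown libraries of the 4 groups, and was too rare there for a test. In total RNA it stood at 140 ± 21.4 CPM (counts scaled to a library size of 1000000 after TMM adjustment of the library sizes, as for all levels here; SD, n = 3) in no-tag wild type and 165 ± 9.74 CPM in Cbp80-PrA wild type, at 0 in no-tag tho2Δ and at 0.577 ± 0.999 CPM in Cbp80-PrA tho2Δ, so the level matched the label in every lysate. The open reading frame YNL140C lies within THO2 on the same strand and shares its reads. Of 7 MATa-specific genes 6 passed the filter on low counts (median interaction -0.18, 0 called), as did 0 of 4 MATalpha-specific genes. Cbp80-PrA tho2Δ stood apart in its chromosome shares, which bear on every count below. Genes of chromosome XVI took 13.1% to 13.3% of its total RNA counts, against 7.23% to 7.60% in the other 3 strains. They took 11.4% to 12.3% of its pulldown counts, against 6.11% to 7.96%. Copy number of that chromosome and the group cannot be told apart, so results are given with and without it. Genes of chromosome II took 9.93% to 10.9% of its total RNA counts, against 12.3% to 12.9% in the other 3 strains. Their share of its pulldown counts was 9.1% to 9.92%, against 12.1% to 14.8%. Most results below include chromosome II.

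Of 6461 genes, 2997 passed the filter on low counts and were tested with edgeR's quasi-likelihood F test over all pulldown libraries. The interaction was called for 130 genes, or 4.34%, at a Benjamini-Hochberg adjusted p below 0.05 and a log2 size above 1. It was higher in tho2Δ for 98 genes (3.27%) and lower for 32 (1.07%). Of the 98, 36 lay on chromosome XVI and 62 elsewhere, and none of the 32 lay on chromosome XVI. In a bulk culture, fewer cells with an RNA and less of it per cell cannot be told apart. The median interaction over all genes tested was 0.14, and 0.04 off chromosome XVI, so a list median is read against these. The split by direction depended on the scaling. It was 75.4% higher with TMM factors, 67.8% with median-ratio size factors (82 higher and 39 lower, median 0.02), 63.6% with DESeq2 (75 and 43, median 0.01), and 40.3% with total counts alone, where 54 genes were higher, 80 lower and the median gene stood at -0.30, so a positive list median smaller than that shift can change sign with the scaling. It was also 64.5% in a fit of the 4 groups alone (69 and 38, median -0.03). Fitted without chromosome XVI, 80 genes were called, 47 higher and 33 lower (58.8% higher, median -0.05). Without chromosomes XVI and II, a fit added after seeing the data, 90 were called, 76 higher and 14 lower (84.4% higher, median 0.25).

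**Figure D1:**
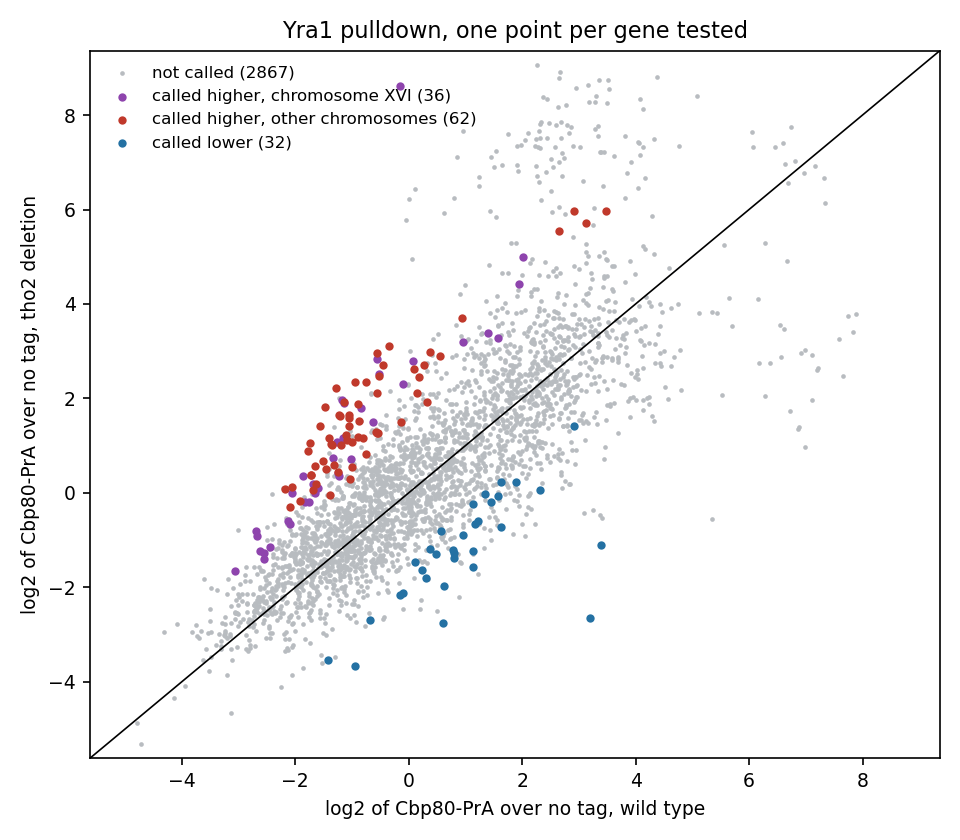
Log2 ratio of Cbp80-PrA to no tag in Yra1 pulldowns for each of the 2997 genes tested, in wild type (x axis) and tho2Δ (y axis), with the line of equal ratios. The 62 genes called higher off chromosome XVI (red) and 36 on it (purple) lie above the line and the 32 called lower (blue) below it; grey points far above or below the line without a call have few counts in a no-tag group.

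The ratios that make up the interaction were themselves large. In wild type 33.8% of genes were called higher and 25.1% lower in Cbp80-PrA than in no tag, and in tho2Δ 32.1% and 20.9%. Between genotypes, 10.1% were called higher and 7.87% lower in tho2Δ among Cbp80-PrA pulldowns. Across the 62 genes called higher off chromosome XVI the interaction had a median of 2.35 and ran from 1.33 to 3.53. Their median log2 ratio to no tag was -1.04 in wild type and 1.35 in tho2Δ. That is a smaller share of the library than in no tag in the first and a larger share in the second. Such ratios compare shares of libraries of unlike depth, not amounts recovered. CGR1, for example, had 79 counts summed over no-tag wild type and 453 over Cbp80-PrA wild type, with a log2 ratio of -0.56. Their median log2 difference between tho2Δ and wild type was 1.95 in Cbp80-PrA and -0.43 in no tag. These medians describe genes chosen by the same contrast and are no test. In total RNA, from other libraries, their median interaction was 0.23 and 0 of the 62 were called. Over the 2616 genes off chromosome XVI tested in both, the total RNA median was -0.03, with 7 called higher and 45 lower. The 0 of 62 is therefore near the overall share and says little about these genes.

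CGR1 had the largest interaction among genes with more than 3 counts in each group. It encodes a nucleolar protein needed to process ribosomal RNA for the large ribosomal subunit. The pulldown level of CGR1 was 916, 496 and 474 CPM in no-tag wild type, 395, 510.1 and 383 CPM in Cbp80-PrA wild type, 209, 316 and 504 CPM in no-tag tho2Δ and 3121, 2813 and 2067 CPM in Cbp80-PrA tho2Δ. All 3 Cbp80-PrA tho2Δ libraries lay above all 9 others, which overlapped. The log2 interaction was 3.53 ± 0.43 (SE, adjusted p = 1.40e-08), and 0.40 in total RNA (adjusted p = 0.123).

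NOP16, another factor of large-subunit assembly, was also highest in Cbp80-PrA tho2Δ. It stood at 603, 474 and 569 CPM in no-tag wild type, 376, 457 and 359 CPM in Cbp80-PrA wild type, 866, 631 and 1075 CPM in no-tag tho2Δ and 6388, 7353 and 3326 CPM in Cbp80-PrA tho2Δ. None of the 4 groups overlapped, with Cbp80-PrA wild type the lowest (interaction 3.17 ± 0.40, adjusted p = 2.82e-08). LEO1 encodes a subunit of the Paf1 complex, which accompanies elongating polymerase. Its levels were 603, 474 and 221 CPM in no-tag wild type, 235, 279 and 179 CPM in Cbp80-PrA wild type, 269, 361 and 403 CPM in no-tag tho2Δ and 1632, 1628 and 1976 CPM in Cbp80-PrA tho2Δ. Only the Cbp80-PrA tho2Δ group stood apart (3.29 ± 0.44, adjusted p = 1.02e-07). In total RNA the interactions of NOP16 and LEO1 were 0.35 (adjusted p = 0.0840) and 0.09 (adjusted p = 0.778).

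CGR1, NOP16 and LEO1 are rich in A and G over their coding sequence. The most purine-rich 90 coding bases are printed for 3 genes called higher and 3 called lower, from the R64 genome, 5′ to 3′ on the coding strand, with runs of 8 or more purines in capitals. They lie at chrVII:440246-440335 (+) for CGR1, chrV:157310-157399 (+) for NOP16, chrXV:553206-553295 (-) for LEO1, chrII:382450-382539 (+) for HSP26, chrII:163755-163844 (-) for PET9 and chrVII:807159-807248 (-) for NSR1, all inside the protein-coding exon.
CGR1: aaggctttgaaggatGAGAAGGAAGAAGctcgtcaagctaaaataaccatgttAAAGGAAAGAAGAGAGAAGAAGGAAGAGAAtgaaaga
NOP16: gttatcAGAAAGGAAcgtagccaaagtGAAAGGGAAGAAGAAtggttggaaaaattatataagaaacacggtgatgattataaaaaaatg
LEO1: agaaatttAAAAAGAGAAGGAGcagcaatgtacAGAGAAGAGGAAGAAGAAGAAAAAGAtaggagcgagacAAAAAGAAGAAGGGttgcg
HSP26: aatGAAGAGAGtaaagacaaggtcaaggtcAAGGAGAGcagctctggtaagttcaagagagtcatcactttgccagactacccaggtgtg
PET9: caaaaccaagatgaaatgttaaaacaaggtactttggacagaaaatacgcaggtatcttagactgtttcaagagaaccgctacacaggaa
NSR1: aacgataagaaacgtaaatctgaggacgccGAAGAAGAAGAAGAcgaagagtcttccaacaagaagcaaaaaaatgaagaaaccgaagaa
Purines made up 78.9%, 73.3% and 84.4% of the windows of CGR1, NOP16 and LEO1, with longest runs of 30, 15 and 26 bases. They made up 63.3% and 62.2% of those of HSP26 and PET9, with longest runs of 8 and 7. NSR1, called lower, also held a window of 75.6% purines with a run of 14, although its coding sequence as a whole was 53.2% purine, against 73.5% in CGR1, 66.2% in NOP16 and 63.9% in LEO1. Over the whole coding sequence the longest purine run was 30 bases in CGR1, 15 in NOP16 and 26 in LEO1, against 28 in NSR1, 14 in PET9 and 8 in HSP26, so the longest run did not separate these 6 genes by call.

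**Figure D2:**
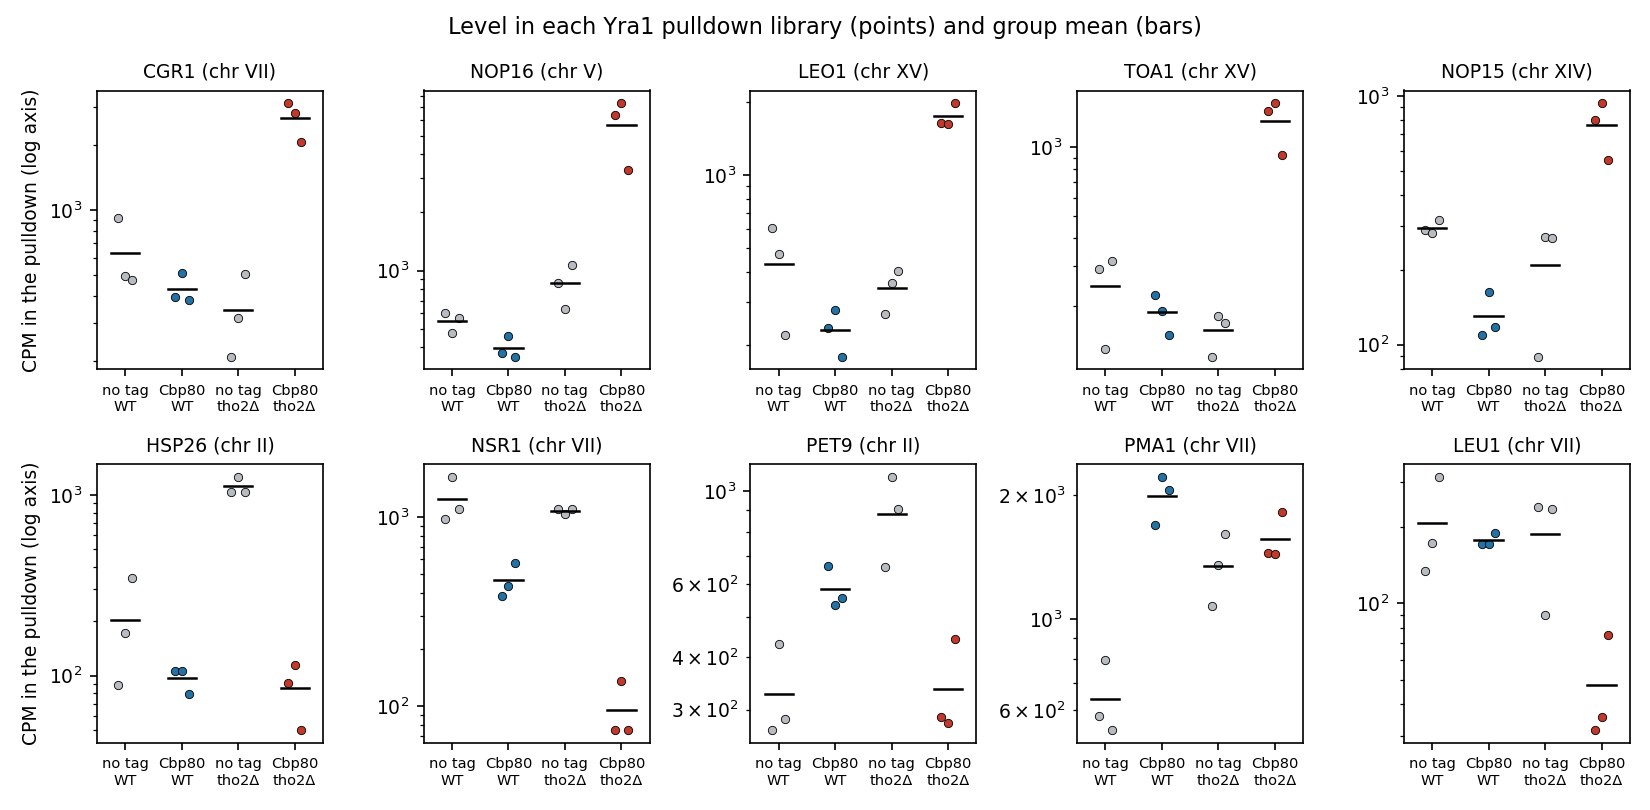
Level of 10 genes in each Yra1 pulldown library (points; CPM, log axis that differs between panels) with the mean of each group of 3 (bars). In the upper row, genes called higher, the Cbp80-PrA tho2Δ libraries stand above the other 3 groups; in the lower row, genes called lower, the pattern differs from gene to gene, with HSP26 high in no-tag tho2Δ and NSR1 low in Cbp80-PrA tho2Δ.

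Several other genes of ribosome assembly were called higher. FCF2, needed for early cleavages of the small-subunit ribosomal RNA, had an interaction of 3.51 (adjusted p = 1.82e-05), and NOP15, a factor of the large subunit, one of 3.07 (adjusted p = 1.44e-05). LOC1, a nucleolar RNA-binding protein known for its part in ASH1 mRNA localization, stood at 1.97 (adjusted p = 0.000157), TMA23 at 2.59 and the nucleolar prolyl isomerase FPR4 at 2.26. On chromosome XVI, RRP15 and NOP4, both of large-subunit assembly, stood at 3.39 and 3.04. Over the whole annotation, 156 genes of the nucleolus were tested, of which 23 were called higher and 2 lower, with a median of 0.44. Off chromosome XVI this was 19 and 2 of 144 with a median of 0.39, against 62 and 32 of 2747 with a median of 0.04 over all genes there. Genes of preribosomes counted 11 higher and 0 lower of 116 (median 0.34), and 9 and 0 of 106 off chromosome XVI (median 0.29). Both these annotation lists were chosen after the values were seen. A shorter list of ribosome biogenesis factors counted 1 higher, NOP4, and 1 lower, NSR1, of 58 (median 0.16). Off chromosome XVI it counted 0 and 1 of 52, with a median of 0.07, close to that of all genes there.

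Genes called higher outside ribosome assembly had varied roles. TOA1, the large subunit of the transcription factor TFIIA, had an interaction of 3.45 ± 0.54 (adjusted p = 4.00e-06). Of 21 genes of nuclear RNA decay 3 were called higher and 0 lower (median 0.07): MPP6 (3.10) and LRP1 (2.41), both cofactors of the nuclear exosome, and NRD1, which helps to end transcription of short noncoding RNAs. NRD1 had 3 or fewer counts in 1 group, and its ratio of ratios was 6.09 with a 95% counting interval of 2.08 to 29.5. Its call was lost in 8 of 12 fits that left out 1 library (adjusted p up to 0.168, without no-tag tho2Δ replicate 2), and LRP1 missed without no-tag tho2Δ replicate 3 (adjusted p = 0.0525). PLP2, a chaperonin cofactor, stood at 3.30 and PEX19, which inserts peroxisomal membrane proteins, at 2.99. The variant histone of the centromere, CSE4, stood at 2.79, but its call was lost in 3 such fits (adjusted p up to 0.0850, without no-tag tho2Δ replicate 3). CHZ1, a chaperone for the histone variant H2A.Z, stood at 2.09.

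CDC31 encodes the yeast centrin, which is also a subunit of the export complex TREX-2. It differed from most of the group in that its CPM in Cbp80-PrA wild type was already above that in no-tag wild type. CDC31 stood at 581, 323 and 347.5 CPM in no-tag wild type, 786, 880.5 and 745 CPM in Cbp80-PrA wild type, 448, 406 and 302 CPM in no-tag tho2Δ and 5614, 6104 and 3401 CPM in Cbp80-PrA tho2Δ. No Cbp80-PrA tho2Δ library overlapped a library of another group (interaction 2.77 ± 0.42, adjusted p = 3.15e-06). It was the 1 gene called among 19 mRNP assembly and export factors, whose median was -0.06.

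RPT2 is an ATPase of the proteasome base. It stood at 1072, 689 and 632 CPM in no-tag wild type, 258, 260.3 and 331 CPM in Cbp80-PrA wild type, 986, 676 and 470.1 CPM in no-tag tho2Δ and 1078, 1214 and 1134 CPM in Cbp80-PrA tho2Δ. Here the low group was Cbp80-PrA wild type, and each Cbp80-PrA tho2Δ library lay just above the highest no-tag library (interaction 2.17 ± 0.38, adjusted p = 4.28e-05). RPT4, another ATPase of the base, stood at 1.73, which missed the threshold without no-tag tho2Δ replicate 2 (1.31, adjusted p = 0.0956). With PRE2 on chromosome XVI, 3 of 32 proteasome genes were called higher and 0 lower, with a median of 0.31.

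The interaction varied with the base composition of the coding sequence. This property was examined after the values were seen, and it is a description over the 2621 nuclear coding genes off chromosome XVI that passed the filter on low counts, of which 59 were called higher and 30 lower. Ordered by purine content and divided into quintiles (groups of near-equal size), the genes had median interactions of -0.14, -0.10, -0.09, 0.01 and 0.57 from poorest to richest. The purine-richest quintile, 524 genes with 56.9% to 78.2% purine, held 53 of the 59 called higher and 0 of the 30 called lower. The other quintiles held 2, 2, 2 and 0 called higher and 9, 4, 9 and 8 called lower. In that richest quintile the median log2 ratio to no tag was -0.43 in wild type and 0.26 in tho2Δ, the median difference between genotypes was 0.41 in Cbp80-PrA and -0.07 in no tag, and the median total RNA interaction was 0.04.

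**Figure D3:**
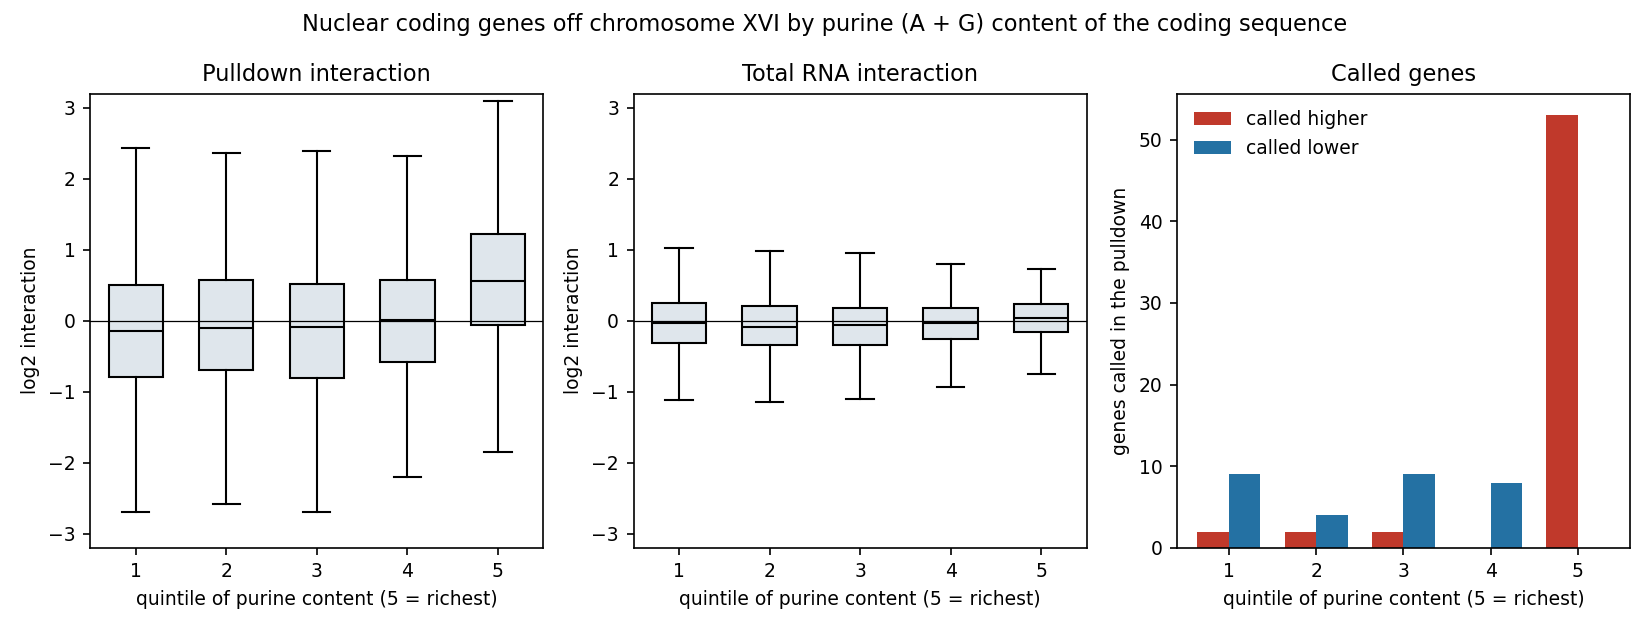
Interaction in the pulldown (left) and in total RNA (middle) for nuclear coding genes off chromosome XVI in quintiles of purine content, as boxes of the median and quartiles with whiskers to the furthest value within 1.5 times the box, and the number called in the pulldown (right). The richest quintile has a pulldown median of 0.57 and holds 53 of 59 genes called higher, while the total RNA median there is 0.04.

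Other measures of composition gave a like arrangement, with guanine alone the least close. The quintile richest in A held 43 called higher and 0 lower (median 0.50), and that richest in G held 31 and 8 (median 0.27). The quintile poorest in T held 48 and 0 (median 0.47), and that poorest in C 39 and 2 (median 0.41). The quintile richest in lysine codons held 35 and 3 (median 0.43), and that richest in codons for acidic residues 39 and 3 (median 0.37). Which of these measures the interaction follows was not tested. The arrangement was alike along the coding sequence: the quintiles with the most purine in its first, middle or last stretch of equal length held 42, 46 and 48 called higher, with medians of 0.48, 0.48 and 0.50. Local runs followed it less closely. Genes whose longest purine run had 16 or more bases held 30 called higher and 4 lower (median 0.23), and those whose longest run of A had 8 or more held 10 and 1 (median 0.04). The exceptions, called higher outside the purine-richest quintile, were EFM5, CPP1, RPS22B, FKS1, SOP4 and NRD1. With genes of ribosomal proteins, nucleolus and preribosomes set aside, the richest quintile still held 34 called higher and 0 lower, with a median of 0.48. On chromosome XVI the richest quintile held 12 of the genes called higher there, with a median of 1.49, and the other quintiles 6, 6, 5 and 6.

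Calls higher were fewest among the longest genes, and calls of both kinds rose with background counts. Across quintiles of the no-tag pulldown level, calls higher numbered 0, 4, 7, 22 and 26 from lowest to highest. Calls lower there numbered 0, 1, 3, 12 and 14. Across quintiles of coding length the genes called higher numbered 15, 24, 12, 7 and 1 from shortest to longest, with medians of 0.39, 0.20, -0.06, -0.13 and -0.19, and those called lower 4, 3, 8, 10 and 5. The total RNA interaction had medians of -0.01, 0.05, 0.04, -0.01 and -0.18 in these length quintiles. The pulldown less total RNA interaction had medians of 0.52, 0.28, 0.09, 0.04 and 0.04. The longest quintile was thus as low in total RNA as in the pulldown. Within each length quintile, the genes richest in purine had medians of 0.77, 0.86, 0.68, 0.36 and -0.01 and held 13, 22, 12, 6 and 0 called higher. Among genes of 2058 or more coding bases, the longest quintile, the medians from purine-poorest to purine-richest were -0.47, -0.17, -0.27, -0.20 and -0.01. Within quintiles of the no-tag pulldown level, the genes richest in purine had medians of 0.38, 0.45, 0.74, 0.71 and 0.64 and held 0, 3, 7, 21 and 22 called higher, while the purine-poorest had medians of 0.38, -0.16, -0.25, -0.27 and -0.06. In the lowest level quintile the poorest and richest genes therefore had the same median to 2 decimals.

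The 32 genes called lower had a median interaction of -1.997 and ran from -5.84 to -1.36. Their median log2 ratio to no tag was 0.88 in wild type and -1.22 in tho2Δ. The difference of tho2Δ less wild type had a median of -0.81 in Cbp80-PrA and 1.03 in no tag, unlike in the genes called higher. These medians too describe genes chosen by the same contrast and are no test. In total RNA the 32 genes had a median of -0.51, and 6 of the 31 tested there were also called lower, against 45 of 2616 genes off chromosome XVI. The genes called lower did not share the base composition of the other group, with a median of 53.1% purine against 53.4% in genes not called and 62.2% in genes called higher.

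HSP26, a small heat shock protein that keeps damaged proteins from aggregating, shows the side of the no-tag libraries. It stood at 89.4, 172 and 347.5 CPM in no-tag wild type, 106, 106 and 79.4 CPM in Cbp80-PrA wild type, 1045, 1263 and 1041 CPM in no-tag tho2Δ and 90.9, 114 and 50.02 CPM in Cbp80-PrA tho2Δ. The high group was no-tag tho2Δ, and both Cbp80-PrA groups were low and overlapped (interaction -2.70 ± 0.48, adjusted p = 6.92e-05). Total RNA had the same arrangement. HSP26 stood there at 31.2, 37.8 and 39.5 CPM in no-tag wild type, 20.1, 40.6 and 40.4 CPM in Cbp80-PrA wild type, 310.0, 355 and 268 CPM in no-tag tho2Δ and 46.7, 64.4 and 36.9 CPM in Cbp80-PrA tho2Δ. Its total RNA interaction was -2.59 (adjusted p = 1.05e-06), and the pulldown interaction less that in total RNA was -0.0019 (adjusted p = 0.9999).

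Of 32 genes of the general stress response tested, 0 were called higher and 5 lower in the pulldown, with a median of -1.16. In total RNA, 14 of the 32 were called lower with a median of -1.01. The list's median difference between tho2Δ and wild type was 0.92 in no-tag pulldowns and -0.04 in Cbp80-PrA pulldowns. GAD1, a glutamate decarboxylase, had an interaction of -3.37 (-1.94 in total RNA), and HXK1, a hexokinase, one of -2.26 (-1.45 in total RNA). TPS2, which makes trehalose, had 0, 1 and 0 counts in no-tag wild type, 22, 31 and 29 in Cbp80-PrA wild type, 7, 4 and 4 in no-tag tho2Δ and 6, 4 and 4 in Cbp80-PrA tho2Δ. With 1 count in the first group, its ratio of ratios was 0.0157 with a counting interval of 0.000398 to 0.0875. For DCS2, a stress-induced relative of a decapping enzyme, the ratio was 0.0378 (0.000956 to 0.210), and the call was lost without no-tag wild type replicate 1 (adjusted p = 0.0737) or 2. Of 37 heat shock proteins and chaperones 0 were called higher and 5 lower (median -0.40), among them the mitochondrial HSP78 (-2.10) and the endoplasmic reticulum Hsp70 KAR2 (-2.34). The KAR2 value rested on few no-tag counts, 0, 2 and 11 in tho2Δ, and became -0.38 (adjusted p = 0.942) without replicate 3 of that group.

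The enzymes that make the glucan of the cell wall moved apart. FKS1 encodes the glucan synthase of growing cells and GSC2 its relative that is induced in stress and sporulation. FKS1 stood at 492, 431 and 347.5 CPM in no-tag wild type, 250.4, 315 and 304 CPM in Cbp80-PrA wild type, 59.7, 271 and 235 CPM in no-tag tho2Δ and 339.7, 414 and 559 CPM in Cbp80-PrA tho2Δ. GSC2 stood at 156, 64.6 and 94.8 CPM in no-tag wild type, 239, 235 and 228 CPM in Cbp80-PrA wild type, 119.5, 225.5 and 403 CPM in no-tag tho2Δ and 75.1, 49.97 and 133 CPM in Cbp80-PrA tho2Δ. FKS1 was called higher (1.83 ± 0.49, adjusted p = 0.0132, total RNA -0.04) and GSC2 lower (-2.70 ± 0.63, adjusted p = 0.00322, total RNA -1.82). FKS1 lost its call in 3 of 12 fits that left out 1 library, those without no-tag tho2Δ replicate 1 (1.2, adjusted p = 0.255), no-tag wild type replicate 1 or Cbp80-PrA tho2Δ replicate 3. GSC2 lost its call in 1, without no-tag tho2Δ replicate 3 (-2.19, adjusted p = 0.134). Of 38 cell wall genes, 1 was called higher and 2 lower (median -0.51), the other being the mannoprotein TIP1 at -1.64.

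NSR1, PET9 and PMA1 kept their calls when any 1 library was left out. NSR1 encodes a nucleolin-like protein of ribosome assembly. It stood at 983, 1637 and 1106 CPM in no-tag wild type, 383, 434 and 573 CPM in Cbp80-PrA wild type, 1105, 1037 and 1108 CPM in no-tag tho2Δ and 75.1, 136 and 75.03 CPM in Cbp80-PrA tho2Δ. Between genotypes it differed by -2.30 in Cbp80-PrA pulldowns (adjusted p = 5.81e-10) and by -0.20 in no-tag pulldowns (adjusted p = 0.828). The interaction was -2.10 ± 0.40 (adjusted p = 0.000159) against -0.19 in total RNA. Pulldown and total RNA interactions of NSR1 differed by -1.79 (adjusted p = 0.0119).

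PET9 is the main ADP/ATP carrier of mitochondria. It stood at 268, 431 and 284 CPM in no-tag wild type, 661, 533 and 555.5 CPM in Cbp80-PrA wild type, 657, 1082 and 907 CPM in no-tag tho2Δ and 288, 278 and 442 CPM in Cbp80-PrA tho2Δ, so that the order of tagged and untagged was reversed between genotypes. Its interaction was -2.19 ± 0.40 (adjusted p = 8.90e-05), with -0.86 in total RNA (adjusted p = 0.000150). PMA1, the proton pump of the plasma membrane, stood at 581, 797 and 537 CPM in no-tag wild type, 1690, 2220 and 2063 CPM in Cbp80-PrA wild type, 1075, 1353 and 1612 CPM in no-tag tho2Δ and 1446, 1442 and 1817 CPM in Cbp80-PrA tho2Δ. Its groups did not overlap in wild type and overlapped in tho2Δ (interaction -1.41 ± 0.35, adjusted p = 0.00568), with -0.12 in total RNA (adjusted p = 0.673). The uridine permease FUI1 stood at -1.99. Of 33 plasma membrane transporters 1 was called higher and 2, PMA1 and FUI1, lower (median -0.21, and -0.47 for the 29 off chromosome XVI). The gene called higher, the polyamine transporter TPO3, lies on chromosome XVI and has a near copy, TPO2, with which it can share reads.

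All 4 genes called among 53 of amino acid synthesis were called lower and act in leucine and branched-chain amino acid synthesis. The list's median was -0.06. In total RNA the list had a median of 0.17, with 1 called higher and 0 lower of 52. The test of pulldown against total RNA interactions called 0 of the list, against 1.07% over all genes, so it says little about these 4. LEU4 and LEU9 encode isopropylmalate synthases, LEU1 the isomerase of the next step and BAT1 the mitochondrial branched-chain transaminase. LEU1 stood at 134, 172 and 316 CPM in no-tag wild type, 172, 171 and 189.8 CPM in Cbp80-PrA wild type, 239, 90.2 and 235 CPM in no-tag tho2Δ and 31.6, 35.7 and 75.03 CPM in Cbp80-PrA tho2Δ, the lowest group for this gene. The interactions of LEU4, LEU1, BAT1 and LEU9 were -2.02, -2.01, -1.79 and -1.57 (adjusted p = 0.0322, 0.0462, 0.00514 and 0.0423). Between genotypes these 4 differed by -1.94, -2.003, -1.45 and -1.32 in Cbp80-PrA pulldowns and by 0.08, 0.00, 0.35 and 0.24 in no-tag pulldowns. The 4 were singled out after their values were seen. BAT1 kept its call without any 1 library, while LEU1, LEU4 and LEU9 lost theirs in 9, 7 and 9 of 12 such fits (adjusted p up to 0.199 for LEU1 without no-tag tho2Δ replicate 1, and 0.152 for LEU4 and 0.198 for LEU9 without no-tag wild type replicate 1).

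**Figure D4:**
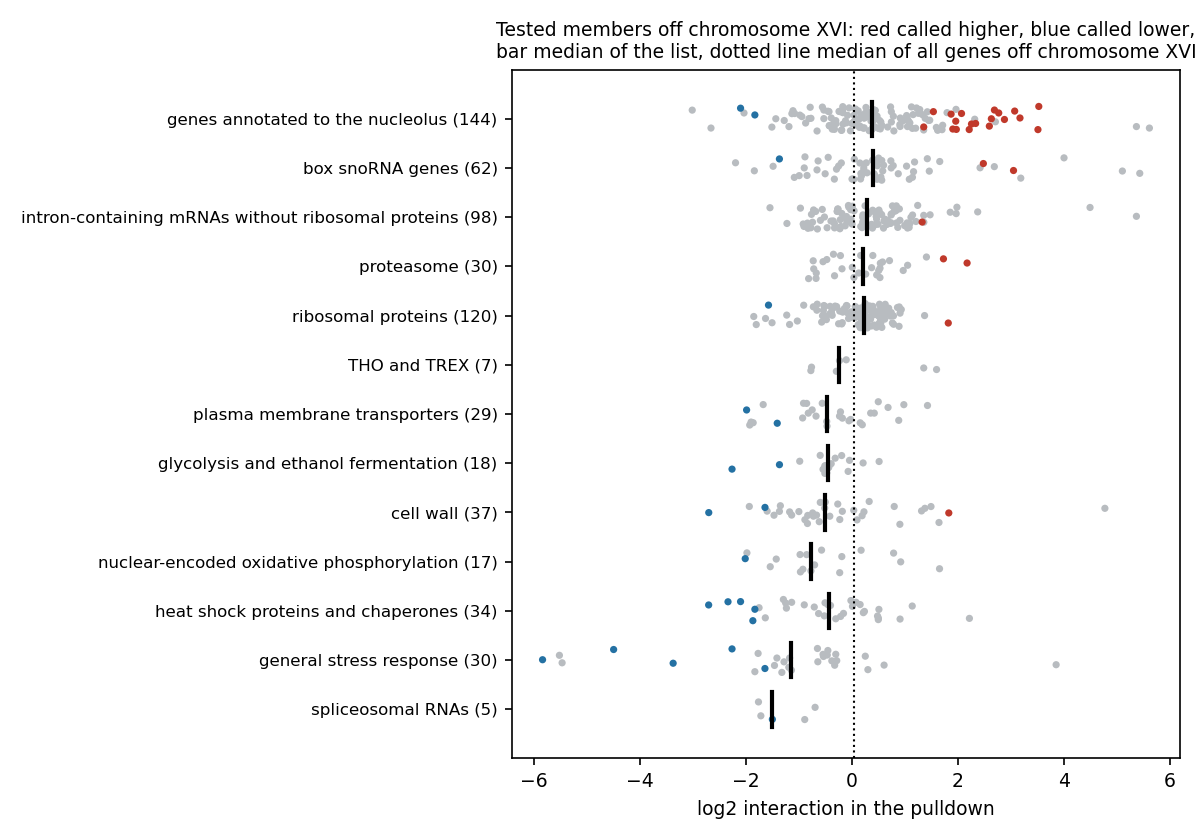
Interaction of each tested gene off chromosome XVI in 13 lists (number tested in brackets), with the list median as a bar and the median of all genes off chromosome XVI as a dotted line. Lists of stress genes, chaperones and spliceosomal RNAs have medians to the left and the nucleolus list a median of 0.39 to the right, with most members of each list not called.

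The remaining lists gave few calls. Ribosomal proteins counted 9 higher and 1 lower of 131 (median 0.24), but off chromosome XVI 1 and 1 of 120 (median 0.22). Their share of pulldown counts was 40.5% to 44.3% in no-tag wild type, 31.3% to 32.4% in no-tag tho2Δ, 8.4% to 14.4% in Cbp80-PrA wild type and 5.5% to 10.5% in Cbp80-PrA tho2Δ. RPS9A, RPL7B and RPL9B have near copies (RPS9B, RPL7A and RPL9A), as do the histone gene HHF1 and the glycolytic TDH1, so their counts are uncertain. Intron-containing mRNAs counted 11 higher and 0 lower of 193 (median 0.31), of which 2 higher were among the 175 off chromosome XVI, and without ribosomal proteins 4 and 0 of 108 (median 0.41), or 1 and 0 of 98 off chromosome XVI (median 0.28). Glycolysis and ethanol fermentation counted 0 and 2 of 18 (median -0.46), and nuclear-encoded oxidative phosphorylation 0 and 1 of 20 (median -0.64). Histones counted 1 and 1 of 10 (median 0.33), phosphate starvation 1 and 1 of 10 (median 0.64), and the secretory pathway 2 and 1 of 44 (median 0.03). Off chromosome XVI, phosphate starvation counted 0 and 1 of 9 (median 0.59) and the secretory pathway 0 and 1 of 38 (median -0.09). There was 1 higher and 0 lower among 29 genes of sterol and fatty acid synthesis (median 0.12), 33 translation factors (median -0.05) and 19 aminoacyl-tRNA synthetases (median 0.02). Off chromosome XVI, 0 were called among the 26 genes of sterol and fatty acid synthesis (median 0.08), the 28 translation factors (median -0.14) and the 17 aminoacyl-tRNA synthetases (median 0.01). None was called among 33 genes of nucleotide synthesis (median -0.25), 6 of DNA damage and recombination (median -0.42), 2 mitochondrially encoded genes (median -0.83) and the 1 Ty gene tested (1.85).

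Among noncoding RNAs, the spliceosomal RNAs had the lowest median of any list, -1.50, with all 5 tested below 0, 1 called lower and 0 higher. The call was SNR19, the U1 RNA, which carries a cap at its start and pairs with the 5′ splice site. It stood at 447, 711 and 316 CPM in no-tag wild type, 2989, 3821 and 4551 CPM in Cbp80-PrA wild type, 956, 812 and 672 CPM in no-tag tho2Δ and 2181, 2627 and 1709 CPM in Cbp80-PrA tho2Δ. Its CPM was above that of no tag in both genotypes, by less in tho2Δ (-1.50 ± 0.40, adjusted p = 0.0107). The call was lost without no-tag wild type replicate 1 (adjusted p = 0.0513) or 3 (-1.23, adjusted p = 0.0800). Box snoRNA genes, whose RNAs guide chemical modification of ribosomal RNA, counted 3 higher and 1 lower of 67 (median 0.46), and 50 of the 67 lay above 0. They took 6.8% to 8.3% of counts in Cbp80-PrA wild type, 7.3% to 7.4% in Cbp80-PrA tho2Δ and 0.6% to 0.9% in the no-tag pulldowns. Whether 3′ tag counts at the snoRNA and spliceosomal RNA genes come from the mature RNAs or from other forms was not tested. SNR39B and SNR64 had 3 or fewer counts in a group, with ratios of ratios of 9.27 (2.57 to 76.6) and 5.89 (2.02 to 28.6). SNR31 stood at -1.37. SNR39B, SNR64 and SNR31 lost their calls in 4, 9 and 7 of 12 fits that left out 1 library (adjusted p up to 0.241 for SNR39B without no-tag tho2Δ replicate 1, 0.251 for SNR64 without no-tag tho2Δ replicate 3 and 0.146 for SNR31 without no-tag wild type replicate 3).

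Transcripts of THO, TREX and their partners were mostly rare in the pulldowns. Of 7 THO and TREX genes tested 0 were called, with a median of -0.23. The THO subunit MFT1 stood at 1.60 (adjusted p = 0.139), THP2 at -0.11, SUB2 at -0.23 and YRA1 at -0.77. Of the mRNA-binding export factors, NPL3 stood at -0.60 and NAB2 at 0.62. The long genes IRA2 and REA1 also gave no call: IRA2 stood at -1.37 (adjusted p = 0.543), and REA1, with 3 or fewer counts in no-tag tho2Δ, had a ratio of ratios of 2.18 (0.745 to 10.6, adjusted p = 0.577). HPR1 and STO1 had 3 or fewer counts in both no-tag groups and were not called, and THO2, TEX1, MEX67, CBC2 and TAO3 did not pass the filter. For these genes a difference was not detectable at this depth.

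On chromosome XVI 250 genes were tested, with 36 called higher, 0 lower and a median of 1.195. Copy number and the group cannot be told apart there. In total RNA 117 of 389 genes of the chromosome were called higher, with a median of 0.87. The median pulldown difference between genotypes over the 250 was 0.83 in Cbp80-PrA and -0.20 in no tag. RRP15 had a larger interaction than the chromosome's median: it stood at 89.4, 64.6 and 158 CPM in no-tag wild type, 70.4, 72.0 and 55.2 CPM in Cbp80-PrA wild type, 149, 0 and 134 CPM in no-tag tho2Δ and 857, 635 and 742 CPM in Cbp80-PrA tho2Δ, for 3.39 in the pulldown and 1.31 in total RNA. SSU1, a sulfite pump, had 0 counts in all no-tag tho2Δ pulldowns, so its ratio of ratios was at least 10.98-fold higher with a floor of 3 counts over that group. Chromosome II lay lower, with 2 genes called higher and 8 lower of 296 and a median of -0.27, and it took 9.93% to 10.9% of total RNA counts in Cbp80-PrA tho2Δ against 12.65% to 12.69% in Cbp80-PrA wild type. The 8 called lower there were HSP26, PHO3, PET9, COR1, FUI1, TPS1, TIP1 and HHF1, and whether chromosome II takes part in their values was not tested. The medians of the other chromosomes ran from -0.21 (I) to 0.24 (IX).

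**Figure D5:**
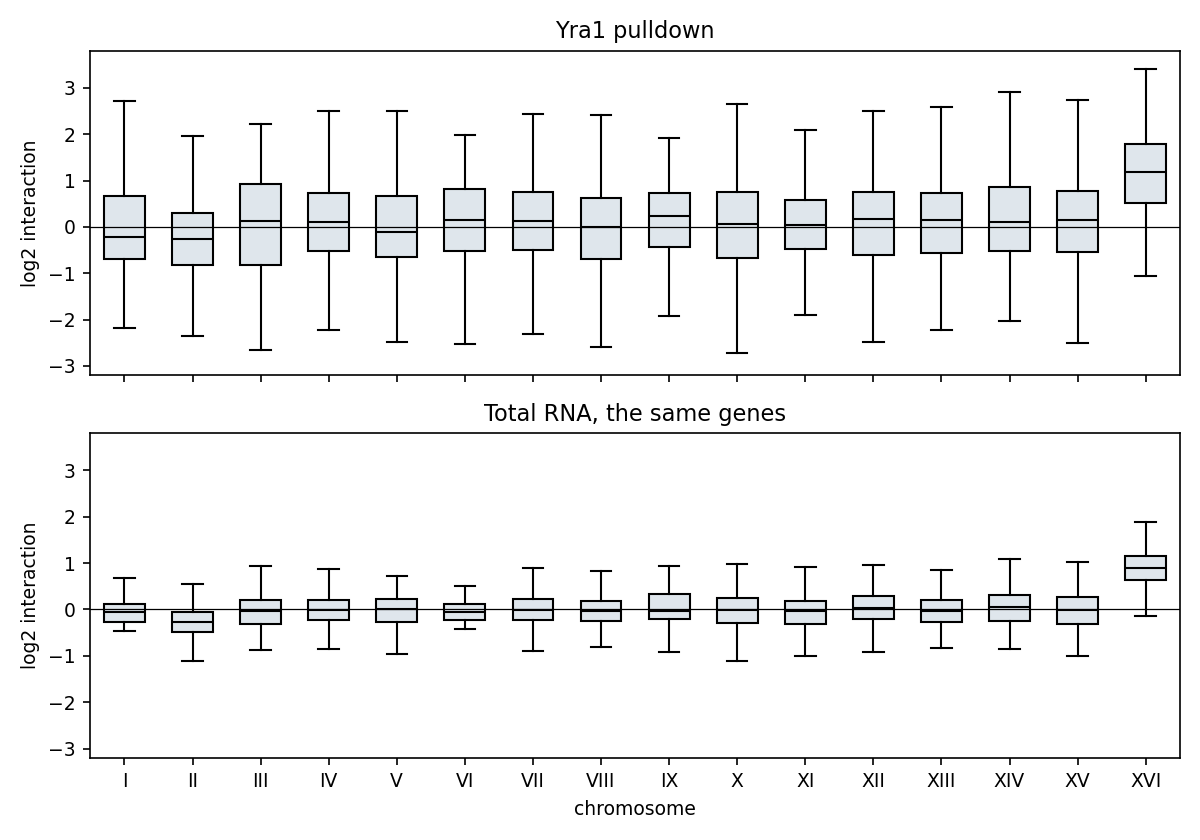
Interaction by chromosome in the Yra1 pulldown (top) and, for the same genes, in total RNA (bottom), as boxes of the median and quartiles with whiskers to the furthest value within 1.5 times the box. Chromosome XVI has medians of 1.195 and 0.89 and chromosome II of -0.27 and -0.26, while the others lie near 0.

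The same interaction in total RNA was called for 195 of 4792 genes (4.07%), 130 higher (2.71%) and 65 lower (1.36%). A joint fit of all libraries tested whether the pulldown interaction of a gene differed from that in total RNA. It did for 59 of 5501 genes (1.07%), with the pulldown higher for 53 (0.963%) and lower for 6 (0.109%). Of the 62 genes called higher off chromosome XVI, 43 were among the 53, and of the 32 called lower, 4 were among the 6. The joint fit used the same pulldown libraries, so these overlaps and the quintile counts below are no separate test. CGR1 differed by 3.27 (adjusted p = 3.79e-08), LEO1 by 3.33 (adjusted p = 3.79e-08), NOP16 by 2.95 (adjusted p = 1.06e-07) and RPT2 by 2.19 (adjusted p = 2.79e-05). RRP15 on chromosome XVI differed by 2.22 without passing the test (adjusted p = 0.122). In the purine-richest quintile off chromosome XVI, 43 genes were called higher and 0 lower in this comparison, with a median of 0.69.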

How the data were processed

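Per the labels and the study's methods, the authors made 3′ tag (QuantSeq) libraries with molecular identifiers, removed duplicates with UMI-tools 1.0.1, aligned to the R64 genome with STAR 2.7.10a and deposited HTSeq 2.0.2 counts per gene, which were used here. Repeat sequencing runs were summed by the authors. Strand settings of counting are not given in the sources used here. A deposited table scaled by DESeq2 1.38.2 size factors was not used. Of 6461 genes, 6458 matched R64; 5 summary lines stayed out of library sizes, and every value column was mapped (0 left over).

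Counts were fitted with edgeR 4.0.16 (R 4.3.3) using filterByExpr, TMM factors and robust quasi-likelihood F tests over all 15 pulldown libraries, 1 mean per group; Hpr1-PrA pulldowns served only to share the estimate of spread, with a biological coefficient of variation of 0.194. Total RNA and joint fits were made alike. Calls needed a Benjamini-Hochberg adjusted p under 0.05 and a log2 interaction beyond 1. Nothing in the labels says that replicates are separate cultures, so p-values measure the spread between these libraries, which may be technical. CPM are counts scaled to 1000000 of the TMM-adjusted library size.

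Genes were named by rule: the 10 largest and 10 lowest called genes with more than 3 counts in each group and at least 20 CPM on average, up to 4 low-count genes each way, up to 2 called members of each list or chromosome each way, and a set always read; the text gives a part. Members and the 31 lists were chosen with earlier results of these data known; base composition, sequence windows, nucleolus and preribosome lists and the leucine genes were chosen after values were seen. Near copies were found with BLAST 2.17.0 (at least 90% identity over 100 bases). On simulated counts for 2787 genes, the test called 10 of 48 genes with a true log2 interaction of 1.5, 23 of 49 at 2, 35 of 49 at 3, 17 of 45 at -2 and 5 of 2596 unchanged genes. The simulation gave every gene and library the same coefficient of variation, 0.194. It does not cover genes or libraries with more spread, as the real data can hold. Alternatives were other scalings, filters, tests (DESeq2 1.42.0, limma 3.58.1), call rules, sets of libraries, a replicate block, leaving out chromosomes or single libraries and, added after seeing the data, leaving out chromosomes XVI and II and thinning the libraries.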

Additional observations from a re-analysis of the deposited data

Results flagged for a closer look

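The ratio of Cbp80-PrA to no tag differed between wild type and tho2Δ, by a test of the difference itself, for 130 genes in pulldowns and 195 in total RNA, and the pulldown and total RNA differences themselves differed for 59. Among named genes the log2 interaction was 3.53 for CGR1, 3.51 for FCF2, 3.45 for TOA1, 3.39 for RRP15, 3.30 for PLP2, 3.29 for LEO1, 3.17 for NOP16, 3.10 for MPP6, 3.07 for NOP15 and 3.04 for NOP4. It was -2.10 for HSP78, -2.10 for NSR1, -2.19 for PET9, -2.26 for HXK1, -2.34 for KAR2, -2.35 for the acid phosphatase PHO3, -2.60 for RTC3, -2.70 for GSC2, -2.70 for HSP26 and -3.37 for GAD1.

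Reads outside any annotated gene were not part of the comparisons. They made up a median of 54.6% (54.2% to 57.8%, n = 3) of the reads in Cbp80-PrA tho2Δ pulldowns, above the 49.4% to 50.6% of no-tag tho2Δ pulldowns. Reads shared by several genes made up a median of 0.282% in Cbp80-PrA wild type and 0.207% in Cbp80-PrA tho2Δ pulldowns, above 0.0120% to 0.0227% in the no-tag pulldowns.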

How the results depend on the processing

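With total counts and no further scaling, 54 genes were called higher and 80 lower in the pulldown, and 97.2% of the genes called higher off chromosome XVI lay in the purine-richest quintile, against 89.8% with TMM factors. Other alternatives of the pulldown fit gave 83.6% to 100%. DESeq2 called 128 genes in total RNA in place of 195, and the adjusted p alone 460. Without chromosome XVI genes 80 genes were called in the pulldown, 47 higher, and 53 in total RNA. Without chromosomes XVI and II, an alternative added after seeing the data, 14 were called lower in the pulldown and 46 called in total RNA. Thinning every pulldown library to the smallest, also added, left 731 genes tested and 28 called, 18 higher and 10 lower, with 100% of those higher off chromosome XVI in the purine-richest quintile.

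Leaving out 1 library at a time gave 92 to 141 genes called in the pulldown, 66 to 111 higher and 19 to 49 lower, 84.5% to 93.0% in the purine-richest quintile, 167 to 220 in total RNA and 37 to 74 whose pulldown and total RNA interactions differed. The genes called lower numbered 19 without no-tag wild type replicate 1, where those that differed from total RNA numbered 37, and 49 without Cbp80-PrA tho2Δ replicate 3. Of 76 called genes that the naming rule gave, 34 kept their call under each alternative run for them, 31 lost it without at least 1 library and 0 changed direction.

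With a replicate block, 127 genes were called in the pulldown (98 higher and 29 lower, 88.5% in the purine-richest quintile), 213 in total RNA and 59 in the joint fit. Pairing by number was not seen: of 18 same-number pairs, 1 correlated above 0.1 in its deviations from the group means (range -0.429 to 0.178). Pairs of unlike number between Cbp80-PrA wild type and Cbp80-PrA tho2Δ ran from -0.335 to 0.393. With 3 libraries per group and few no-tag counts, this check cannot exclude shared batches. KAR2 (-2.34, adjusted p = 0.0703), SSA4 (-1.84, adjusted p = 0.0579) and APM4 (-2.05, adjusted p = 0.0579) were not called by edgeR under the replicate block. The depth of the no-tag tho2Δ libraries, 23769 to 38378 gene counts, limits each interaction of a rare RNA.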
